A study of Homo sapiens with 28 samples.

Results

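The regions on the long arm of chromosome 16 (16q) were the 2295 of 154985 regions of accessible chromatin that lay on chromosome 16 with a start at or above position 46400000 (GRCh37). They were described across 22 untreated multiple myeloma cell lines by ATAC-seq, an assay in which the Tn5 enzyme cuts and tags open DNA. Each line contributed 1 untreated library, and 6 of them (Karpas620, KMS27, L363, MM1S, OPM2 and RPMI8226) had a further library from cells exposed to 10 µM lenalidomide and taken on day 3. No line had a replicate culture, so the second library of these 6 lines was the only repeated measurement of the same genome. The untreated libraries held 1599857 to 5564534 counts in regions and the lenalidomide libraries 2168680 to 4248017.

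Loss of 16q is a recurrent event in myeloma, and the arm carries CYLD, a deubiquitinase that restrains NF-κB signalling. It also carries WWOX, a large tumour suppressor gene that spans a common fragile site, and, telomeric of it, MAF, a transcription factor gene that is placed under immunoglobulin enhancers by the t(14;16) translocation, whose breakpoints often fall within WWOX. A region that opens in one line may be closed in another, but closed chromatin still yields a few reads, and their number follows how much of that DNA the nucleus holds.

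The start regions of CYLD, WWOX and MAF and the 3 most variable regions of 16q away from a gene start are shown first, because WWOX and MAF lie at runs and steps in read depth described further on, CYLD is the signalling gene of the arm with the most open start, and the distal regions differed most between lines. Each line gives 300 bases of GRCh37 on the forward strand, taken as close to the centre of the region as annotated untranslated sequence allowed. Capitals mark matches on either strand to 4 short motifs. These were TGANTCA for AP-1 factors, GGGCGG for the GC box bound by SP factors, CCAAT for the box bound by NF-Y, and the core CCGGAA bound by factors of the ETS family. No match overlapped another.
CYLD start, chr16:50775661-50775960: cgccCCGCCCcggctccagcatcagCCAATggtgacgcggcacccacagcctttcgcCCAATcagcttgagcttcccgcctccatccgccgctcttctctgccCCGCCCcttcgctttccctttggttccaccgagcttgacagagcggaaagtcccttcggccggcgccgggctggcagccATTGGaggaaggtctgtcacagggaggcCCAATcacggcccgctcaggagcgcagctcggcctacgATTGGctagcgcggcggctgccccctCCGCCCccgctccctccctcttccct
WWOX start, chr16:78132997-78133296: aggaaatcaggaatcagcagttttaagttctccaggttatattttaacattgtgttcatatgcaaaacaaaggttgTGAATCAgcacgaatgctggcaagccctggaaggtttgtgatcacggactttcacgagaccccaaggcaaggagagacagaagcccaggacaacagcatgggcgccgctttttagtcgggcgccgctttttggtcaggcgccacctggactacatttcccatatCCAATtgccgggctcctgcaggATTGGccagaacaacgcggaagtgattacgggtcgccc
MAF start, chr16:79634662-79634961: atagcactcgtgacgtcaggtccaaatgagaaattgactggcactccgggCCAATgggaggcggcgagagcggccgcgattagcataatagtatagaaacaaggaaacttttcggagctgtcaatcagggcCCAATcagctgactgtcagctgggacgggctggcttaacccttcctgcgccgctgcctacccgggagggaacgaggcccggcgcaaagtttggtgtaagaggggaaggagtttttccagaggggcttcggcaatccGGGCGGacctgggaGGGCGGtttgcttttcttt
Distal region 1, chr16:65797598-65797897: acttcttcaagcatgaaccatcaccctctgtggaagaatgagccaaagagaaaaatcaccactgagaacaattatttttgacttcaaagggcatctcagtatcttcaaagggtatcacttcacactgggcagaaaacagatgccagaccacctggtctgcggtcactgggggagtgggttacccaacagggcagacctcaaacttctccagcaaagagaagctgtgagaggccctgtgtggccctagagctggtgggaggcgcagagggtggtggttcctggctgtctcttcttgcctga
Distal region 2, chr16:65871441-65871740: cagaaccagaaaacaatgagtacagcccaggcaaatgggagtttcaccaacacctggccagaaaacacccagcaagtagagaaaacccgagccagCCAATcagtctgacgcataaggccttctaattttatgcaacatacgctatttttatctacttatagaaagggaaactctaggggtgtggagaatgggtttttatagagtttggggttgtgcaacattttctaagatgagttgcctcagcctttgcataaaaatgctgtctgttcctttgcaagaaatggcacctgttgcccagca
Distal region 3, 3457 bp from a start of ZC3H18, chr16:88700498-88700797: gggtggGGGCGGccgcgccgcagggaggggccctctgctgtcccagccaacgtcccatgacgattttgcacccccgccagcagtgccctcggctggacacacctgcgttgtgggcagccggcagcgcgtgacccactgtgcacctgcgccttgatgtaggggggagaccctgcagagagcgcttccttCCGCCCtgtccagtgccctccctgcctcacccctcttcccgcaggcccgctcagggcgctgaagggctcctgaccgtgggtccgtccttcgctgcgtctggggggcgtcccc

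The CYLD window held 3 GC boxes and 5 CCAAT boxes with 68.7% GC, the MAF window 2 of each, and the WWOX window 1 AP-1 match and 2 CCAAT boxes. The window at chr16:65797598-65797897 held none of the 4 strings and 2 CpG dinucleotides. Over the 300 bases at the centre of every region, GGGCGG was present in 19.6% of the 16q regions and 14.7% of all regions, and CCGGAA in 8.89% and 6.70%. TGANTCA was present in 14.3% of 16q and 15.2% of all regions, and CCAAT in 27.5% and 31.0%. Within 16q, GGGCGG was found in 69.4% of the 108 regions called in all 22 untreated lines. Of the 844 called in 1 line, 12.6% held it. TGANTCA was found in 3.70% and 17.4%, in the same order. Both motifs also differed with distance to a gene start. GGGCGG was found in 37.3% of 16q regions within 2.5 kb of a start and in 10.16% of the others. For TGANTCA these shares were 11.26% and 15.98%. Whether the contrast by number of lines holds apart from this distance was not tested.

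The 16q regions had a median width of 443 bp and a median GC content of 50.6%, against 420 bp and 46.9% over all regions. A gene start lay within 2.5 kb of 799 regions (34.8%, against 26.5% over all regions), and 69.3% overlapped an annotated gene against 62.1%. A median of 2 untreated lines had a peak in a 16q region, the same as over all regions. Regions called in all 22 untreated lines made up 4.71% of 16q regions and 3.98% of all regions. Those called in 1 line made up 36.8% and 37.1%. Peaks were called in a median of 4 lines at the regions near a start and of 1 line at the distal ones.

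All 7 plasma cell marker genes had a region at their start, and 6 of them (SDC1, TNFRSF17, PRDM1, XBP1, IRF4 and CD38) were called in 18 to 22 of the 22 lines, whereas SLAMF7 was called in 2. Of 10 genes that mark other cells, 8 had a region, and each of these was called in 3 or fewer lines except HBB with 9. The libraries of PE1 and KMS34 resembled each other more than those of any other pair of lines. Their relative read depth over 558 windows of the autosomes correlated at r = 0.83, where the next of 231 pairs of lines reached 0.39 and the 2 libraries of a line 0.89 to 0.95. Over all regions their accessibility correlated at r = 0.90, against at most 0.79 for other pairs of lines. This lay within the range for the 2 libraries of a line, 0.88 to 0.93. The copy estimate below and its correlation with open regions were therefore also computed without PE1. Other counts and values over lines include both PE1 and KMS34. KMS12BM and KMS12PE come from the same patient and are not independent, although their depth profiles correlated at only r = 0.20.

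The first question was how much 16q DNA each line held. Reads were summed over the 16q regions in which a line had no peak and which lacked a peak in at least 11 of the 22 untreated libraries, and were divided by the reads expected from the library and the region. The log2 of this ratio, called the copy measure here, is relative to the rest of the genome of the line and to the other lines, and is not an absolute number of copies. A median of 1746.5 regions entered per line, and the 95% Poisson intervals cover counting error only. A region without a peak may still be partly open, and the copy measure was not checked against another measure of copy number.

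KMS12BM and KMS20 had the lowest copy measure on 16q. The copy measure was −0.59 in KMS12BM (95% interval −0.63 to −0.56, 7130 reads where 10753 were expected) and −0.58 in KMS20 (−0.61 to −0.55, 7962 reads against 11902). These intervals overlapped, so the order of these 2 lines was not resolved. KMS12PE followed at −0.34 and PCM6 at −0.27. At the other end stood Karpas620 at 0.38 (0.35 to 0.42), U266 at 0.37, KMS26 and RPMI8226 at 0.34, OPM2 at 0.30 and KMS34 at 0.24, and neighbours in this order had overlapping intervals. In all, 4 lines lay at or below −0.2 and 6 at or above 0.2. The other 12 lines lay between −0.19 (XG-6) and 0.19 (KMS18), with PE1 at 0.12.

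**Figure D1:**
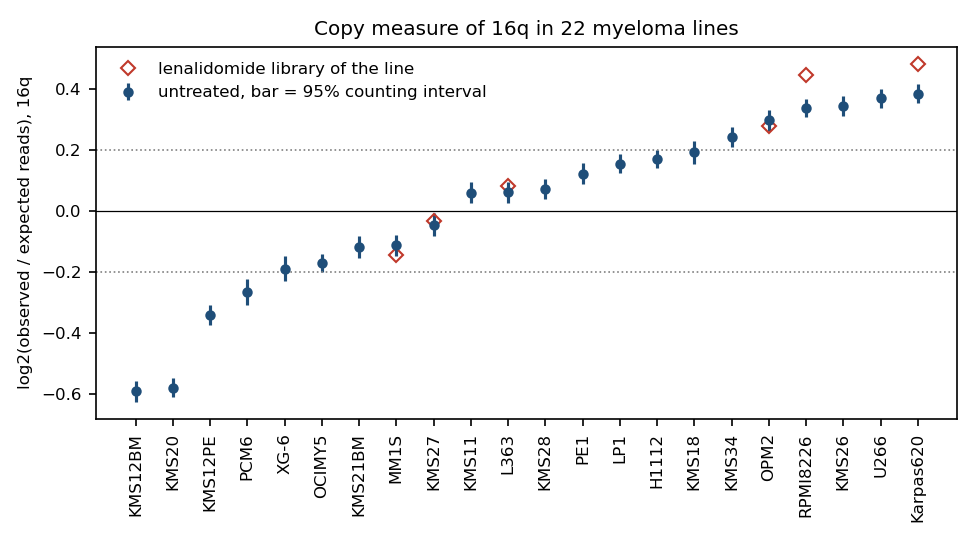
Copy measure of 16q (log2 of observed over expected reads in regions without a peak) in 22 untreated lines in rising order, with 95% Poisson counting intervals as bars, lenalidomide libraries of 6 lines as open diamonds and dotted lines at −0.2 and 0.2. KMS12BM and KMS20 sit near −0.6, and the diamonds lie within 0.11 of the untreated value of their line.

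The copy measure was repeated in the lenalidomide library of the same line. It was 0.38 and 0.48 in Karpas620, 0.34 and 0.44 in RPMI8226, 0.30 and 0.28 in OPM2, 0.06 and 0.08 in L363, −0.05 and −0.03 in KMS27 and −0.11 and −0.14 in MM1S, the untreated library being given first. The mean absolute difference between the libraries of a line was 0.048, and the largest was 0.11. This was smaller than in all but 1 of the other ways to pair these libraries (exact permutation test over 720 pairings, one-sided p = 0.0028, where 0.0014 is the smallest possible). The lines below −0.2 had no second library, so none of the low values was measured again.

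The spread of 16q over the 22 lines (SD 0.29) ranked 6th among 39 chromosome arms, with 22q, 10p, 20p, 18p and 8p above it. In KMS20, 16q was the lowest of the 39 arms, and in KMS12BM and PCM6 the second lowest. The short arm of the same chromosome, with 2093 regions, was not low in the lines with the lowest copy measure on 16q. In KMS12BM it stood at 0.16, or 0.75 above 16q, in KMS20 at 0.05, and in PCM6 at 0.13. Among lines with a high 16q, it was about as high in RPMI8226 (0.39 on 16p and 0.34 on 16q) and U266 (0.34 and 0.37), and stood at 0.10 in Karpas620. The long arm lay below the short arm in 8 lines and above it in 14, most in PE1 (by 0.44), KMS21BM (by 0.40) and KMS26 (by 0.37).

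Along the arm, the low lines differed in where reads were missing. In windows of 5 Mb, KMS20 was low throughout, from −0.95 to −0.17, with 8 of 9 windows at or below −0.2. KMS12BM was at or below −0.2 in all 9 windows, with −1.40 at 51.4 to 56.4 Mb, −1.25 at 61.4 to 66.4 Mb and −1.58 at 76.4 to 81.4 Mb. KMS12PE stood at 0.33 and 0.53 in the first and second windows and at −1.12 in the window from 76.4 Mb. In OCIMY5, whose arm value was −0.17, the windows ran from −1.24 next to the centromere to 0.48 and 0.52 in the last 2. Karpas620 was above 0 in every window, from 0.14 to 0.56.

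**Figure D2:**
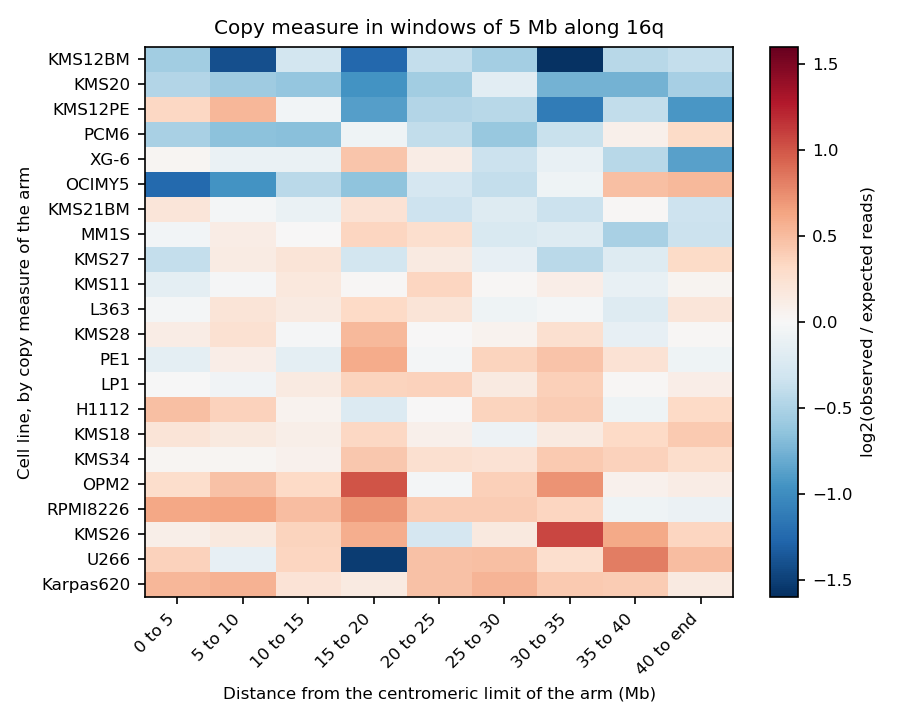
Copy measure (log2, colour) in 9 windows of 5 Mb along 16q, from the centromeric limit of the arm on the left, in 22 untreated lines ordered by their value for the arm. KMS20 is blue throughout, OCIMY5 turns from −1.24 to 0.52 along the arm, and U266 has a single dark window of −1.52.

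U266 was high in 7 windows but stood at −1.52 from 61.4 to 66.4 Mb, a window with few regions and a median GC content of 45.4%, where the lines also varied most (SD 0.67). Reads outside 16q moved with region density in this library. In the decile of regions off 16q with the fewest neighbours, the U266 ratio was 1.19 lower on the log2 scale than in the densest decile, against −0.67 in OCIMY5, −0.53 in KMS12BM, 0.74 in OPM2 and 0.53 in PE1. With the library scale fitted within deciles of region density (an alternative chosen after seeing the data), this U266 window rose to −0.75, that of KMS12BM from −1.25 to −0.98 and that of OCIMY5 from −0.64 to −0.17. The arm values hardly moved, with KMS12BM at −0.58, KMS20 at −0.59 and U266 at 0.42. The part of region density in the window values was not tested otherwise.

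Split at the start of MAF (position 79634634, a point chosen after the windows had been seen), several lines differed in level between the sides. These are levels over each whole side and do not place a change at MAF. OCIMY5 stood at −0.54 centromeric and 0.45 telomeric of MAF, and PCM6 at −0.53 and 0.18. U266 rose from 0.21 to 0.68, a difference of 0.48 that fell to 0.24 with the library scale fitted within deciles of region density, and KMS26 rose from 0.21 to 0.58. The opposite difference was present in RPMI8226, from 0.52 to −0.07, and in XG-6, from −0.02 to −0.55. It was also present in MM1S, from 0.05 to −0.44, and in KMS12PE, from −0.19 to −0.68. In KMS12PE, however, the window from 61.4 Mb already stood at −0.88, and the window from 81.4 Mb at −0.40. The lower telomeric level was found again in the lenalidomide libraries of both lines that had one. The difference there was −0.45 in RPMI8226 (−0.58 untreated) and −0.62 in MM1S (−0.50 untreated). The remaining 4 pairs differed by −0.22 to −0.04 in the lenalidomide library.

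In bins of 500 kb around WWOX and MAF, RPMI8226 had 170 reads where 94.2 were expected from 79.4 to 79.9 Mb, the bin with MAF, and 35 where 47.0 were expected in the next bin. These log2 ratios, 0.85 and −0.42, were 0.94 and −0.54 in the lenalidomide library. OCIMY5 had 22 reads where 85.3 were expected from 76.4 Mb and 196 where 77.6 were expected from 78.9 Mb, a bin within the end of WWOX and beyond it. KMS26 lay at 1.15 to 1.52 in each of the 5 bins from 78.4 to 80.9 Mb, and below 0.7 in the 4 bins before. KMS21BM had 20 reads where 90.1 were expected in the bin with MAF and 12 where 55.7 were expected in the next. Its values were above 0.4 in the 4 bins from 76.4 to 78.4 Mb. The bin with MAF was also low in KMS12BM (26 reads where 153.9 were expected), KMS12PE (39 where 154.8 were) and KMS20 (65 where 193.8 were). KMS12PE, KMS12BM and KMS21BM had the lowest CPM at the MAF start as well. Whether reads in these bins follow copies or how open the regions are was not tested. PCM6 had 2 reads where 41.9 were expected from 78.4 to 78.9 Mb, inside WWOX.

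A complete loss leaves no reads at all, and such stretches were sought as runs of neighbouring 16q regions with 0 counts where at least 15 reads were expected from the median of the other lines. There were 111 runs in 15 of the 22 lines, of which 27 were single regions and 24 held 5 or more regions. KMS12BM had 27 runs, PCM6 19, U266 16 and KMS12PE 14, and 7 lines had none. Expected reads rise with the library total, so these counts depend on depth. The 7 lines without a run had 1599857 to 2302843 counts in regions. KMS12BM, U266 and KMS12PE had 3658255 to 3929936, and PCM6 had 2150806. U266 and KMS12BM also had lower ratios in sparse than in dense regions off 16q, as given above. The numbers of runs therefore do not rank the lines by loss. Because a closed region also gives few reads, a single region without reads does not tell loss and closed chromatin apart. Named here, after their values were seen, are the 5 runs with the most expected reads, the 5 with the most regions, a further WWOX run in PCM6, and 1 run found again in a second library.

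The longest run was in OCIMY5. From 48075846 to 48643868, 36 neighbouring regions had 0 counts where 546 were expected, while the other 21 lines had 234 or more in the same regions. A count of 0 allows up to 0.549% of the expected reads here. This run, the next from 48645742 to 48686663 (7 regions, 100.2 reads expected) and 1 more formed a stretch of 702 kb up to 48778228 with 48 regions, of which 46 had no reads and 2 had 1 read each where 698 were expected in all. In the other lines the same stretch held 0.50 to 1.77 times the expected reads. It covers ABCC11 and ABCC12 (transporters of the ABC family), LONP2 (a peroxisomal protease), SIAH1 (a ubiquitin ligase) and N4BP1 (an inhibitor of NF-κB signalling). The LONP2 start region had 0 CPM (the count of a region scaled to a common total of counts in regions) in OCIMY5 and a median of 26.8 over the 22 lines. The nearest region with reads before the stretch ended at 48055374 and had 4, and the nearest one after it began at 48807616 and had 1.

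**Figure D3:**
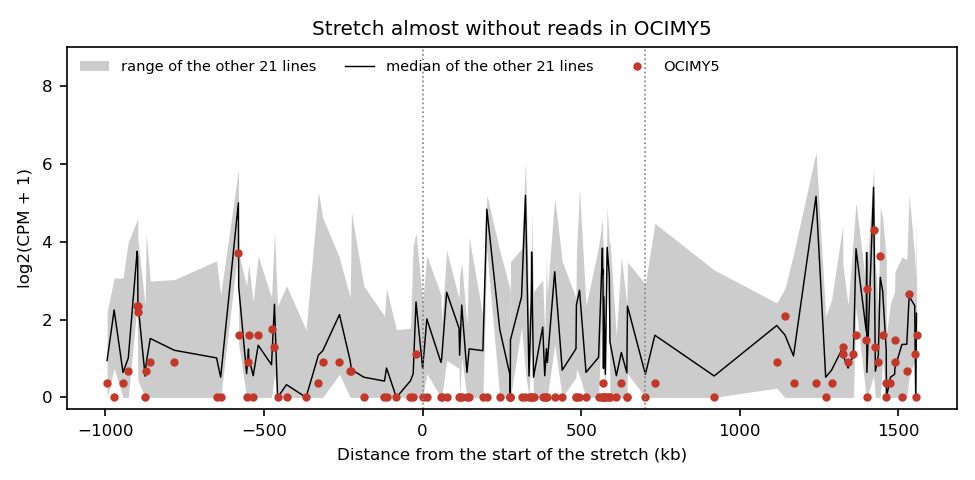
Level of each region, log2(CPM + 1), by distance from the start of the longest run, in OCIMY5 (red points), with the median (line) and the range (grey) of the other 21 lines; dotted lines mark the stretch of 702 kb. Within it OCIMY5 had 2 reads where 698 were expected.

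The other runs were spread along the arm, and 5 of the 111 overlapped WWOX. Whether this is more than the share of the arm's regions that lie in this large gene was not tested. In KMS12BM the WWOX start region and its neighbour (78093301 to 78134241) had 0 counts where 318 were expected, and the fewest reads in any other line were 80. The WWOX start region alone ran from 42.1 CPM in KMS20 to 117 in KMS26 over the other 21 lines, with a median of 81.9 over all 22. KMS12PE, from the same patient, had 68.2 CPM there, or 268 reads. In PCM6, 15 neighbouring regions inside WWOX (78370175 to 78769626, 399.5 kb) had 0 counts where 27.3 were expected, followed by 6 regions from 78783632 to 78809537 where 15.2 were expected. U266 had 8 regions without reads further along the gene, from 78937168 to 78995717, where 17.2 were expected. PCM6 also lacked reads in 12 regions of ZFHX3, a transcription factor gene, where 35.9 were expected, and KMS12BM in 9 regions of CDH13, a cadherin gene, where 20.3 were expected. The remaining runs with many expected reads were in KMS12BM, a single region at 54962796 (262.5 expected, 3 or more reads in the other lines) and 2 regions at CBLN1 (136.7 expected, 1 or more reads in the other lines). Of 9 runs in lines with a lenalidomide library, 1 (RPMI8226 at 80514434, 0 reads where 22.7 were expected) was without reads there too, where 45.5 were expected. The other runs of these lines had 2 to 9 reads in the lenalidomide library, where 14.9 to 24.0 were expected. Most runs that could be checked were therefore not without reads a second time. The runs with the most expected reads or the most regions were in lines without a second library. They could not be checked. Whether any run is a complete loss was not tested.

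The next question was whether open chromatin on 16q followed the copy measure. The 106 regions of 16q that had a peak in all 28 libraries never entered the copy measure, so the compared sets shared the library but no region. Both are reads of the same arm and library, and regions without a peak may be partly open, so they are not independent measures. The median level of these regions rose with the copy measure over the 22 lines, with Pearson's r = 0.88, Spearman's rho = 0.80 and a slope of 1.42 on log2 scales. Leaving out the 2 lines farthest from the median gave r = 0.81, and leaving out PE1 gave r = 0.88. No other arm of the 39 had a higher r, but 8q (0.87), 10p (0.87) and 13q (0.86) were close. The r of 16p was 0.68, and the lowest of the 39 was 0.47 (15q), so the relation was not particular to 16q. KMS20 and KMS12BM, lowest in the copy measure, were lowest in these regions as well. KMS27 lay farthest above the fitted line, and KMS26 and PCM6 farthest below it.

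**Figure D4:**
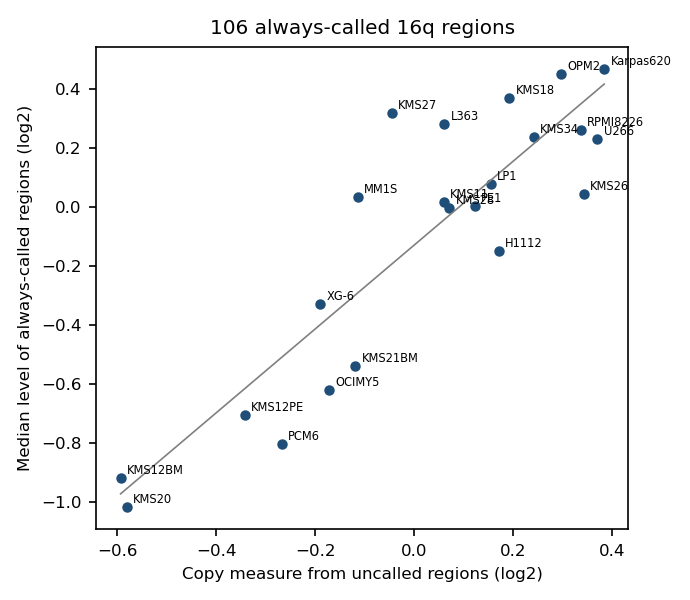
Median level of the 106 regions of 16q called in all 28 libraries (log2 CPM relative to the median line) against the copy measure from regions without a peak (log2), 1 point per untreated line, with the fitted slope of 1.42. Lines with a low copy measure have low levels in the open regions, and r is 0.88 over 22 lines.

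The share of a line's peaks that lay on 16q rose with the copy measure, whereas their number did not follow it, with 560 in KMS20, 343 in PE1 and 432 in KMS26. Of the regions called in a line, 1.03% (KMS20), 1.13% (PCM6) and 1.27% (KMS12BM) lay on 16q at the low end, and 2.12% (Karpas620) at the high end, with r = 0.91 against the copy measure over 22 lines. These measures share the reads of the library and the peak calling threshold. The share of all counts that fell on 16q ran from 0.786% in KMS12BM to 1.92% in Karpas620. Dividing each region's CPM by the copy ratio of its window lowered the SD over lines in 107 of the 108 regions called in all 22 untreated lines, and their median SD of log2(CPM + 1) fell from 0.59 to 0.43. The fall was smaller over all 2295 regions, from 0.79 to 0.74. In these bulk libraries fewer copies per cell, fewer cells with the arm and less open chromatin per copy cannot be told apart at a single region.

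Of the signalling genes, CYLD had a start region that was called in all 22 lines, at 23.0 CPM in the lowest line, a median of 68.7 and 122 in the highest. The lowest 4 lines were OCIMY5 at 23.0, KMS12BM at 27.4, KMS20 at 35.5 and PCM6 at 43.2, and Karpas620 and OPM2 were highest. Dividing by the copy ratio lowered its SD of log2(CPM + 1) from 0.645 to 0.441. TRADD, the adaptor of the TNF receptor, ran from 11.2 CPM in PCM6 over a median of 33.8 to 48.5 in H1112. PLCG2, a phospholipase of the B cell receptor pathway, was called in all 22 lines, from 5.84 CPM in MM1S over a median of 12.7 to 29.3 in KMS26. NFATC3 and NFAT5, transcription factors of the NFAT family, had medians of 39.9 and 27.9 CPM and were lowest in PCM6, at 13.5 and 3.72.

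MAF was the most variable of the transcription factor genes at its start, with an SD of 1.7 on the log2(CPM + 1) scale, which ranked 19th of 2295. KMS12PE had 1 read there and KMS12BM 2, followed by KMS21BM at 2.38 CPM, KMS27 at 4.38, H1112 at 6.11 and L363 at 7.14. The median was 22.04 CPM. KMS26 was highest at 86.8 CPM, ahead of KMS34 at 60.6, OPM2 at 60.5 and PE1 at 54.4. MAF was called in 14 lines, and PE1, with 87 reads, was not among them. After division by the copy ratio the SD was 1.42. CBFB (the partner of the RUNX factors) and CTCF (the insulator protein) were called in all 22 lines, with medians of 16.1 and 45.1 CPM, and both were lowest in KMS20 (4.94 and 17.2). IRF8, a factor of B cell and myeloid development, had its region 3366 bp from the outermost start of the gene, at a further transcript start, with a median of 9.65 CPM.

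The genes of protein quality control and secretion had the lowest median SD of the listed groups of 16q genes, 0.56. All 10 had a start region, and 7 of them were called in all 22 lines. VPS35, a subunit of the retromer, had the highest median of any 16q region, 123 CPM, with 53.9 in OCIMY5 and 174 in KMS12PE. HERPUD1, a gene of endoplasmic reticulum stress, ran from 43.0 CPM in KMS20 over a median of 83.0 to 129 in RPMI8226, and its SD fell from 0.43 to 0.29 on division by the copy ratio. PSMD7, a subunit of the proteasome lid, was lowest in KMS12PE at 12.0 CPM, with a median of 27.3. The other regions among the 5 with the highest median were the starts of AKTIP (119 CPM), MON1B (96.8) and CNOT1 (95.1) and a region 2010 bp from SLC38A8 (95.6).

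**Figure D5:**
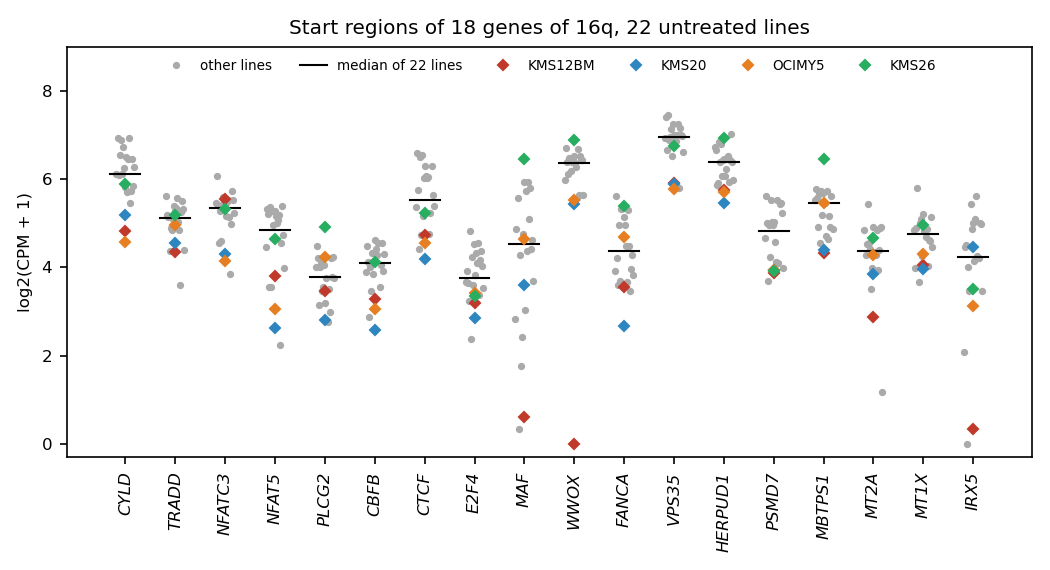
Level of the start regions of 18 genes of 16q, log2(CPM + 1), in 22 untreated lines (points), with the median as a bar and 4 lines in colour. KMS12BM has 0 CPM at WWOX, and at MAF the lines run from 0.25 to 86.8 CPM.

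Metallothionein genes, whose products bind zinc and copper, form a cluster on 16q. MT1A, MT3 and MT4 had no start region, and MT1G and MT1H shared 1. MT1X was called in all 22 lines (11.8 to 55.0 CPM, median 26.1) and MT2A in 21 (median 19.8). MT2A had 2 reads in XG-6, or 1.25 CPM, and 42.2 CPM in KMS12PE. MT1E had 64.1 CPM in KMS12PE, where OCIMY5 was next at 15.03 and the median was 2.48. Of the chemokine genes, CCL17 had no region, and CCL22 and CX3CL1 were called in 1 line each. Among 7 developmental genes, SALL1, FOXF1 and FOXC2 had no region. IRX3 was called in 3 lines and reached 42.7 CPM in KMS11 with a median of 0.82, and IRX5 in 10, with no read in KMS12PE, 1 in KMS12BM and 48.1 CPM in MM1S.

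The region with the largest SD over lines lay at the start of CBLN1, which encodes a secreted organiser of synapses (49315544 to 49316651, SD 2.38). It fell into separate levels. KMS12BM had 0 CPM, and OCIMY5, KMS20, PCM6, KMS21BM, XG-6 and KMS12PE had 0.295 to 0.763, with at most 3 reads each. The other 15 lines had 18.1 CPM (PE1) to 77.7 (Karpas620), so the levels did not overlap. These 7 lines were the 7 with the lowest copy measure of the arm. This match was looked at only for this region, after it had been picked for its SD. How often other variable regions divide the lines in this way was not tested. The last of the 7 places was not resolved. KMS21BM (−0.12, 95% interval −0.16 to −0.08) overlapped MM1S (−0.11), which had 29.5 CPM at CBLN1, and MM1S was the lower of these 2 lines when only regions far from a start were used (−0.15 against −0.08). In the window that holds CBLN1 their copy measure ran from −1.24 to 0.33 and was below 0 in 4 of them. Among the next 4 regions by SD were distal regions 1 and 2 printed above, which lie in the same long non-coding RNA gene (RP11-513N24.1) and were both highest in OPM2, at 98.6 and 51.1 CPM, with 0 reads in KMS12BM and PCM6. Distal region 3, in ZC3H18, had a different order, with 48.6 CPM in KMS27, 44.6 in KMS11 and 39.2 in RPMI8226. A region 962 bp from the start of BANP was highest in PCM6 at 49.7 CPM.

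Lenalidomide was compared with no treatment within the 6 lines that had both. Of 674 regions of 16q with enough reads to be tested, 37 (5.49%) were higher after lenalidomide and 2 (0.297%) lower, by edgeR's quasi-likelihood test with cell line as a block and Benjamini-Hochberg adjustment over 37732 regions at 0.05. Over all regions 4.17% were called higher and 1.22% lower. The median log2 fold change was −0.02 on 16q and −0.01 over all regions.

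The largest increase was at SLC12A3, which encodes a sodium chloride cotransporter, in a region from 56944559 to 56945051, with a log2 fold change of 1.62 ± 0.29 (SE, edgeR adjusted p = 0.00034). It rose in 6 of 6 lines, from 4.08 to 22.1 CPM in L363, from 3.71 to 13.3 in KMS27 and from 2.06 to 8.35 in MM1S. The rise was from 0.69 to 2.35 in Karpas620, from 3.78 to 6.12 in RPMI8226 and from 3.13 to 4.07 in OPM2. All untreated values were thus low, at 4.08 CPM or less, and the region was not tested when KMS27 or MM1S was left out. A second SLC12A3 region, from 56904890, rose by 1.41 ± 0.22 (edgeR adjusted p = 5.86e-05). The others among the 5 largest increases with the same direction in 6 of 6 lines lay in CYB5B, a cytochrome b5 gene (1.48 ± 0.25, edgeR adjusted p = 0.00022), 17073 bp from the start of the metallothionein gene MT4 (1.44 ± 0.25, edgeR adjusted p = 0.00025) and at the start of DPEP1, a dipeptidase gene (1.40 ± 0.31, edgeR adjusted p = 0.0037).

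Both regions that were lower fell in 6 of 6 lines. One lay in PDXDC2P, a pseudogene with a near-identical parent gene on 16p, so its reads may be shared with that copy (log2 fold change −1.14 ± 0.25, edgeR adjusted p = 0.0030). The other lay in ZFPM1, which encodes a partner of GATA factors (−0.84 ± 0.20, edgeR adjusted p = 0.0060). It stood at 29.2 CPM untreated and 12.7 with lenalidomide in OPM2, and at 15.6 and 12.5 in RPMI8226.

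Of the listed genes of 16q, 48 had a start region and 33 of these entries were tested. MT1X alone passed the threshold, where 4.17% of all regions were called higher and 1.22% lower, with a log2 fold change of 0.49 ± 0.13 (edgeR adjusted p = 0.019) and higher values in 6 of 6 lines, from 14.9 to 18.4 CPM in Karpas620 and from 33.4 to 42.8 in KMS27. This call was lost with DESeq2 (adjusted p = 0.10), and with edgeR without KMS27 (adjusted p = 0.057), MM1S (0.069), OPM2 (0.080) or RPMI8226 (0.052). CYLD (0.01 ± 0.07, edgeR adjusted p = 0.98), MAF (−0.08 ± 0.18, edgeR adjusted p = 0.88) and WWOX (−0.19 ± 0.08, edgeR adjusted p = 0.23, lower in 6 of 6 lines) did not pass.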

How the data were processed

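ATAC-seq libraries of 22 untreated myeloma lines and 6 lenalidomide-treated lines were analysed. Per the labels and methods, the authors aligned reads to GRCh37 with Bowtie2 2.2.6, used SAMtools 1.7, called peaks per library with MACS2 2.1.0.20151222 and merged the peaks of 28 libraries. The deposited counts are raw counts per autosomal region. Whether duplicates were removed and whether reads or fragments were counted is not given in the sources used here. The deposited RPM values equalled the counts divided by the total of the library in regions and scaled to a common total (largest difference 5.46e-12), here called CPM. A further deposited table of whole numbers, which it does not define, was read as the number of peaks of a library in each region, and 0 as not called.

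Expected reads were the product of a library scale and a region effect from a Poisson fit over uncalled regions of all autosomes. Gene positions came from GENCODE v44 lifted to GRCh37. A start region was the region nearest a gene start within 2.5 kb, by that annotation or by the deposited one, which includes further transcript starts. The regions named by value were the 5 of 16q with the highest median CPM, the 5 with the largest SD, and the 5 largest lenalidomide changes in each direction with the same sign in 6 lines. Lenalidomide was tested with edgeR 4.0.16 (TMM scaling, filterByExpr by condition, cell line as a block, SE from the F statistic), with DESeq2 1.42.0 as an alternative. Pairs were libraries of the same cell line. The steps were tested on simulated data. The regions and gene lists were chosen with earlier results of these data known. With 1 culture per line and condition, the edgeR p-values measure how the lenalidomide change varies between lines, with the level of each line removed by the block. They do not measure the spread between cultures of a line.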

Additional observations from a re-analysis of the deposited data

Results flagged for a closer look

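Within the 6 lines that had both libraries, 1 value stood apart from its group by Dixon's criterion, of 19 groups of values examined, and chance gives about 1 in 20. The PDXDC2P region from 70027976 to 70028759 had 3.78 CPM in untreated RPMI8226, where the other 5 untreated lines had 12.7 to 17.9 CPM. The region lies in a pseudogene with a near-identical parent gene, and how reads were assigned between these copies was not tested.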

How the results depend on the processing

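The SD of the copy measure over lines was 0.28 to 0.32 under 8 alternatives, 2 of them (without PE1 in the fit, and a library scale within deciles of region density) chosen after seeing the data. None of the 10 lines past ±0.2 changed sign or returned within the limit in 83 recomputed values. Of the other 12, 5 passed it under some alternative, so the counts of 4 low and 6 high lines depend on the setting. OCIMY5 reached −0.39 (the largest shift, 0.22) and H1112 0.32 with the median over windows, XG-6 −0.24 and KMS18 0.25 with the median of the arms set to 1, and PE1 0.24 with the library scale per GC decile. The repeat in the lenalidomide library had p = 0.0028 to 0.0167 (exact permutation) under the same alternatives, and 0.0083 to 0.0167 when each line was left out, which was added later. The correlation of open regions with the copy measure was 0.81 to 0.88. The number of runs without reads followed its threshold: 205 with at least 10 expected reads, 49 with at least 25, and 262 when 1 read was allowed. The regions raised by lenalidomide on 16q numbered 37, against 17 by DESeq2, 65 when regions of low count were kept, and 0 without the replicate block (0 lowered), where 15 had an unadjusted p under 0.05. Leaving out 1 line gave 23 to 36 raised regions, 23 without KMS27 and 23 without MM1S, and 2 to 3 lowered. Under other settings the 7 named regions kept their call in 59 of 66 values, the 7 losses all being without the block. The SLC12A3 region with the largest increase was not tested without KMS27 or without MM1S. The DPEP1 region was not tested without L363 or without RPMI8226. The edgeR adjusted p of the MT1X start region ranged from 0.0092 (no filter) to 1 (no block). Of the 5 most variable regions, 3 were among the first 5 with a pseudocount of 0.1, and 3 after division by the copy ratio. Depth limited single regions: in a run with few expected reads, a count of 0 does not exclude a low level. The causes of these differences were not tested.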
